A study of Mus musculus with 34 samples.

Results

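Messenger RNA of 10 genes for chromatin remodelling proteins was followed in single mouse embryos: Smarca4, Smarca2, Smarcb1, Smarcc1, Smarcc2, Smarca5, Chd1, Chd4, Ep400 and Ino80. They were chosen by symbol as the ATPases of the main remodeller families together with core subunits of the BAF complex, and all 10 were found among the 43349 symbols that every deposited table shares. Zygotes had been injected with mRNA that codes for either wild-type CHK1 (WT) or CHK1 carrying the change written R442Q. The WT groups held 5 zygotes, 4 late 2-cell embryos and 7 blastocysts, and the R442Q groups held 6, 5 and 7 of these. The blastocysts of both kinds had grown in medium with a CHK1 inhibitor at 30 nM, and zygotes and late 2-cell embryos are labelled as untreated. Stage and inhibitor therefore cannot be told apart where blastocysts are set beside the earlier stages. No uninjected embryo enters these comparisons, so R442Q is read only against injected WT. The kinase CHK1 holds back the cell cycle when DNA is damaged or incompletely replicated. Each library was 1 embryo, made with SMART-seq2 cDNA and Tn5 fragmentation, and p-values measure the spread between these embryos.

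Chromatin remodellers use ATP to slide, evict or exchange nucleosomes, and their ATPases belong to the SNF2 superfamily. In mammals they fall into the SWI/SNF (BAF), ISWI, CHD and INO80 families, each built of a motor protein and non-catalytic partners. In the mouse embryo the first complexes work with proteins and RNA stored in the oocyte, and maternal BRG1, the product of Smarca4, is known to be needed for activation of the zygotic genome.

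Oocyte and trophectoderm markers separated the blastocysts from the earlier stages. With both kinds pooled, zygotes and late 2-cell embryos overlapped in their marker sums. Within each kind the 2-cell markers separated these 2 stages, and the oocyte markers did so in WT alone. The summed FPKM of 8 oocyte markers was 4093 to 7394 in zygotes, 1366 to 7147 in late 2-cell embryos and 0 to 6.45 in blastocysts. That of 7 markers of the 2-cell stage was 26.4 to 75.5 in WT and 66.3 to 122 in R442Q zygotes. In late 2-cell embryos it was 111 to 1061 in WT and 571 to 1929 in R442Q. The summed FPKM of 6 trophectoderm markers was 35.3 to 74.7 before the blastocyst and 1246 to 24283 in it. That of 7 inner cell mass markers did not separate the stages, at 62.2 to 194 in zygotes, 19.4 to 63.6 in late 2-cell embryos and 94.3 to 596 in blastocysts. FPKM is the fragment count scaled to transcript length and library size. Chek1, the gene for CHK1, had an FPKM of 4123 to 9079 in WT and 5290 to 6868 in R442Q zygotes, 344 to 653 and 253 to 905 in late 2-cell embryos, and 7.05 to 38.2 and 13.3 to 23.6 in blastocysts, so the kinds overlapped at each stage. Total estimated counts per embryo were 7183632 to 11296522 in zygotes and 5727956 to 8916343 in late 2-cell embryos. Blastocysts came with FPKM alone, so their depth in counts is unknown. Their relative depth, recovered from the spacing of low FPKM values, was 0.879 to 1.105 of the mean, by a method that missed known totals by at most 2.45% in zygotes and 10.14% in late 2-cell embryos. In whole embryos, fewer cells of a type and less RNA per cell cannot be told apart.

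Smarca4 and Smarca2 code for the alternative BAF motors BRG1 and BRM, and the deposited values describe them on different footing. Smarca4 lies on chromosome 9 from 21616169 to 21704230 on the plus strand, and Smarca2 on chromosome 19 from 26605050 to 26778322 on the plus strand (mm10, GENCODE M21). An embryo's count and FPKM of a gene together give the effective transcript length that was used. For Smarca4 this length had a median of 5989 bases over 20 zygotes and late 2-cell embryos, and its longest coding transcript has 6376. For Smarca2 it had a median of 792 bases and a range of 627 to 908, and the longest coding transcript has 5921. In each of the 20 embryos most of the estimated Smarca2 FPKM was thus assigned to short transcripts. That length is a mean weighted by FPKM, so the share of the counts on short transcripts is not known. Whether the embryos held such transcripts cannot be read from these values and was not tested. GENCODE lists 46 transcripts of Smarca2, of which 28 start in its last part, at or past position 26747600, and these are 503 to 2333 bases long. Of the coding ones, 1 has GENCODE's best support level, Smarca2-203, which is 1962 bases long and codes for 236 residues. Its 708 coding bases are identical to the full coding sequence (1583 residues) from coding position 4042 on, so it holds the protein's end and not the ATPase motor. The first 60 bases are shown because they mark where such a short product would begin, with the start codon in capitals and the first base at position 26751851.
Smarca2-203: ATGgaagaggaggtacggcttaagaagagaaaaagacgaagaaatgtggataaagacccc
The antisense genes 4931403E22Rik and Gm20616 overlap the span of Smarca2, and no strand setting is given in the sources used here. Of the 50-base stretches of annotated Smarca2 transcripts, 0.09% occur in transcripts of other genes, read on either strand.

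**Figure D1:**
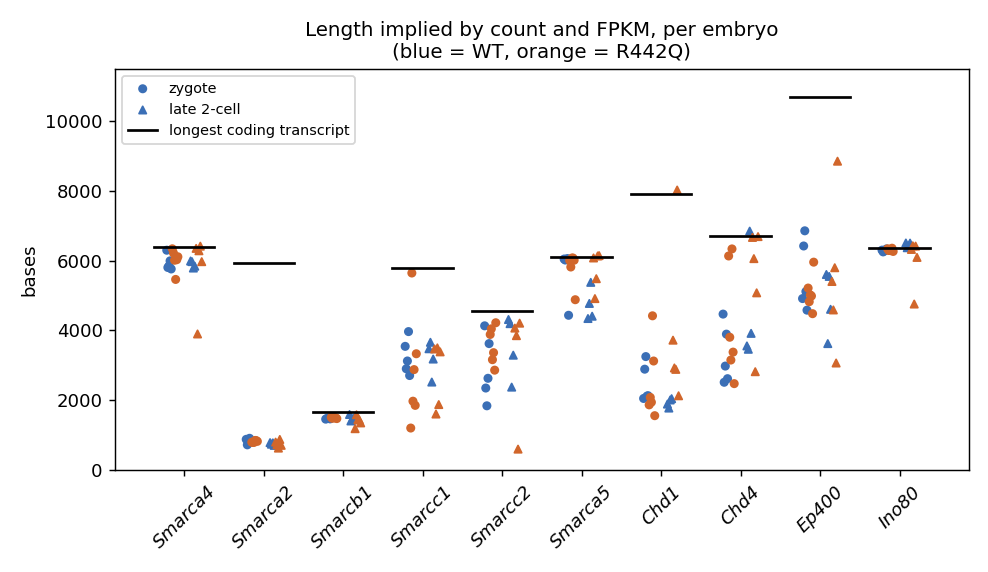
Effective transcript length in bases (y axis) implied by each embryo's count and FPKM, for each of the 10 genes (x axis), with circles for zygotes, triangles for late 2-cell embryos, blue for WT, orange for R442Q and a black line at the longest coding transcript. The Smarca2 points lie at 627 to 908 bases, far under the line at 5921, while Ino80 and Smarca5 points mostly lie near their lines.

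The other genes differed in the same measure. Ino80 and Smarca5 had median lengths of 6308 and 6006 bases, which are 99.3% and 98.2% of their longest coding transcripts. Chd1 stood at 26.8%, Ep400 at 47.4%, Smarcc1 at 54.6% and Chd4 at 57.5%, so their FPKM values rest on mixtures with shorter transcripts. For genes with 1 annotated transcript the implied length had a median of 0.940 of the annotated length in zygotes and 0.944 in late 2-cell embryos. Smarcb1 and Smarca5 had counts with decimals in all 20 libraries, as arises when reads fit several genes. Of the 50-base stretches of Smarca5, 28.17% also occur in other genes, mostly the pseudogene Gm13135, so its level is uncertain. Smarcc1 overlaps Dhx30 on the opposite strand.

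The region just upstream of each gene is shown for the pair of BAF motors, because they were the member with the largest R442Q difference in late 2-cell embryos and the only one called higher in zygotes. The sequences are the 250 bases before the start of Smarca4 (chr9:21615919-21616168) and the 140 bases before that of Smarca2 (chr19:26604910-26605049), plus strand, from RefSeq on GRCm38.p6, with the dinucleotide CG in capitals. These starts are the GENCODE ones, and the RefSeq start of Smarca2 lies 110 bases downstream of its GENCODE start.
Smarca4: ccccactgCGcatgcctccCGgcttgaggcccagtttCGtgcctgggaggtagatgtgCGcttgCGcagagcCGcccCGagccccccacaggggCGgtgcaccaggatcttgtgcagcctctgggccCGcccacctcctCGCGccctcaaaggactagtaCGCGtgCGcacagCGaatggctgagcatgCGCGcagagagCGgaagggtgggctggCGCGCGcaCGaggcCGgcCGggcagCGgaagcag
Smarca2: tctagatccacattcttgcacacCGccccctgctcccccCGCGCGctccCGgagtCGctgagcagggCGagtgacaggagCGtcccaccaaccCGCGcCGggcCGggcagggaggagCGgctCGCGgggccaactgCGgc
In the window from 250 bases before the RefSeq start to 50 after it, Smarca4 had 33 CG dinucleotides and Smarca2 had 29, and 8.6% and 12.9% of all 32851 such windows held at least as many. The RefSeq windows of 9 of the 10 genes were matched, and they held 17 to 48, against a median of 7 over all windows. Smarcc2 was highest with 48. Both BAF motors thus start in sequence with more CG than most windows, as do the other 7 genes matched.

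In WT zygotes, the order of the members by median FPKM began with Smarca2 (274), Ep400 (71.3), Smarcb1 (68.4) and Chd4 (39.4). The ranges of Ep400 (44.6 to 77.3) and Smarcb1 (62 to 71.8) overlapped, and Chd4 (23.4 to 43) lay under both. The other 6 members had medians of 2.34 (Ino80) to 6.07 (Smarcc2), and each overlapped its neighbours among these 6. In WT late 2-cell embryos Chd1 (66.6) and Smarca5 (39.1) had moved up behind Smarca2 (265), and Smarcc2 (2.5) was lowest. In WT blastocysts Smarcb1 (107), Chd1 (42.6) and Smarca4 (18.7) led, and Ino80 (2.32) and Smarcc2 (2.8) were lowest. The blastocyst table was made separately and lists other symbols, 51734 against 49686, so levels set across it and the earlier tables carry that difference.

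**Figure D2:**
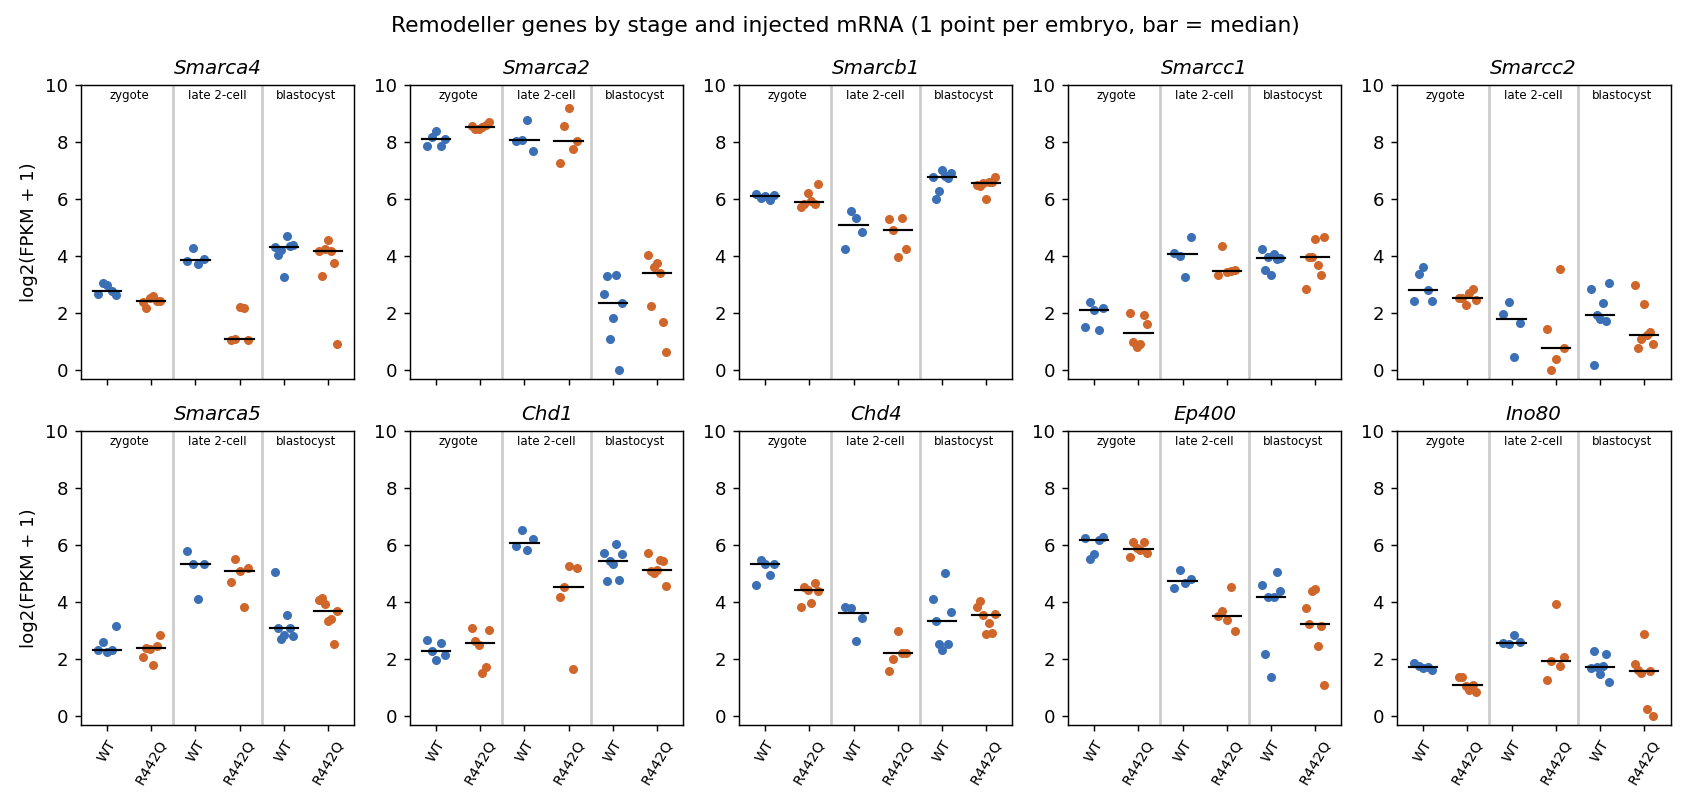
FPKM of each gene on a log2(FPKM + 1) scale (y axis), with 1 point per embryo, by stage and injected mRNA (x axis; blue WT, orange R442Q) and a bar at each group's median. The 5 R442Q late 2-cell embryos have Smarca4 FPKM of 1.06 to 3.65, under the 4 WT embryos at 12.1 to 18.6.

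Between the zygote and the late 2-cell stage most of the members changed in embryos injected with WT CHK1. A model of both stages and both kinds (edgeR quasi-likelihood, p-values adjusted by Benjamini-Hochberg over 16199 genes, called under 0.05) called 8 of the 10 in WT embryos, 5 higher and 3 lower, where 61.2% of all genes were called. Their median was 0.51 on the log2 scale, against 0.34 over all genes. In R442Q embryos all 10 were called, 4 higher and 6 lower, where 65.1% of all genes were called, and their median was -0.96 against 0.22. Most genes changed at this transition, so the members are described by direction and size. Values below are log2 differences, late 2-cell against zygote, ± SE, and levels are CPM, the count scaled to a library total of 1e6.

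Among the BAF genes, Smarca4 rose in WT embryos and fell in R442Q embryos. In WT embryos its CPM was 33.9, 43, 40.5, 35.4 and 30.2 in zygotes and 78.1, 111, 70.2 and 80.5 in late 2-cell embryos. Every WT late 2-cell embryo lay above every WT zygote, and the difference was 1.15 ± 0.36 (edgeR adjusted p = 0.0083). Without WT late 2-cell replicate 2, the highest of them, it was 0.80 and the adjusted p was 0.0773. In R442Q embryos the CPM was 22.1 to 28.3 in 6 zygotes (median 26.9) and 6.73, 4.36, 22.9, 22.4 and 6.5 in late 2-cell embryos, a difference of -1.28 ± 0.34 (edgeR adjusted p = 0.0021). Of the R442Q late 2-cell embryos, replicates 3 and 4 lay in the range of the zygotes and the other 3 far under it.

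Smarca2 did not pass between the stages in WT embryos and fell in R442Q embryos. Its CPM was 202 to 260 in WT zygotes and 206, 198, 340 and 143 in WT late 2-cell embryos, overlapping ranges with a difference of -0.09 ± 0.24 (edgeR adjusted p = 0.753). In R442Q embryos it fell by 0.64 ± 0.22 on the log2 scale (edgeR adjusted p = 0.014), and the ranges of 275 to 340 CPM in zygotes and 123 to 363 CPM in late 2-cell embryos overlapped. The FPKM ratio of Smarca2 to Smarca4 had a median of 42.7 in WT zygotes, 88.1 in R442Q zygotes, 17.4 in WT late 2-cell embryos and 159 in R442Q late 2-cell embryos. With counts divided by the length of the longest coding transcripts the 4 medians were 6.41, 12.6, 2.37 and 19.7, so the size of the ratio rests on the short transcripts and its order over the groups is the same. In blastocysts Smarca2 was listed at an FPKM of 0.01 to 9.1 (WT) and 0.54 to 15.3 (R442Q), with a median ratio to Smarca4 of 0.288 and 0.571. Put on the full-length scale, early embryos held 20.7 to 61.3 Smarca2 CPM per kilobase, still above every blastocyst FPKM of the gene.

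The order within the scaffold pair Smarcc1 and Smarcc2, which code for BAF155 and BAF170, turned over between the stages. Smarcc1 rose by 2.47 ± 0.42 in WT and 2.63 ± 0.38 in R442Q embryos (edgeR adjusted p = 2.3e-05 and 2.6e-06). Its CPM went from 6.55 to 12.4 in WT zygotes to 21.8 to 78.4 in WT late 2-cell embryos. Smarcc2 had 15.8 to 21.7 CPM in WT zygotes and 12.5, 17.9, 0.926 and 6.97 in WT late 2-cell embryos, and the difference of -1.01 ± 0.69 did not pass (edgeR adjusted p = 0.208). In R442Q embryos Smarcc2 fell, by 2.47 ± 0.67 on the log2 scale (edgeR adjusted p = 0.0026). R442Q late 2-cell replicate 2 had 0 counts of Smarcc2, which allows up to 3 counts or 0.524 CPM. The median FPKM ratio of Smarcc1 to Smarcc2 was 0.429 in WT zygotes, 8.61 in WT late 2-cell embryos and 3.85 in WT blastocysts. Per count and length the WT medians were 0.393 and 6.22, so the turn in order was seen on both scales. Smarcb1, which codes for the SNF5 subunit of canonical BAF, fell by 1.10 ± 0.30 in WT and 1.49 ± 0.28 in R442Q embryos on the log2 scale (edgeR adjusted p = 0.0033 and 6.3e-05).

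In WT embryos Chd1 had the largest rise of the 10 genes, and Smarca5 rose by about as much as Smarcc1. Chd1, a remodeller found on active genes, had 11, 11, 9.45, 10.4 and 7.35 CPM in WT zygotes and 115, 160, 112 and 148 CPM in WT late 2-cell embryos. The groups stood far apart, with a difference of 3.69 ± 0.36, or 12.94-fold (edgeR adjusted p = 6.1e-09), and it was 2.50 ± 0.31 in R442Q embryos (edgeR adjusted p = 2.5e-07). Smarca5, the ISWI motor SNF2H, rose by 2.55 ± 0.29 in WT and 2.66 ± 0.27 in R442Q embryos (edgeR adjusted p = 1.1e-07 and 9.6e-09). Its FPKM in WT embryos was 3.78 to 7.98 in zygotes, 16.4 to 53.8 in late 2-cell embryos and 5.59 to 31.9 in blastocysts.

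Chd4 and Ep400 fell in both kinds of embryo. Chd4, the motor of the NuRD complex, had 104 to 117 CPM in WT zygotes and 46.4, 44.6, 35.7 and 38.4 CPM in WT late 2-cell embryos. It fell by 1.49 ± 0.22 in WT and 2.21 ± 0.21 in R442Q embryos on the log2 scale (edgeR adjusted p = 5.0e-06 and 3.3e-09). Ep400, the motor subunit of the TIP60 complex, fell by 1.52 ± 0.17 and 2.50 ± 0.16 on the same scale (edgeR adjusted p = 6.9e-08 and 7.0e-12). Ino80, the motor of the complex of that name, rose by 1.11 ± 0.41 in WT (edgeR adjusted p = 0.022) and 1.55 ± 0.37 in R442Q embryos (edgeR adjusted p = 8.9e-04). Its WT call was lost in 5 of 20 fits that left out 1 embryo: WT zygote replicate 2, R442Q zygote replicates 3 and 5, or WT late 2-cell replicates 2 and 3, with an adjusted p of up to 0.0838. It was also lost with no filter on low counts (1.07, adjusted p = 0.054). The R442Q rise was called in each of 20 fits without 1 embryo, at 0.96 to 1.70. Thus motors of the INO80 and TIP60 complexes moved in opposite directions.

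**Figure D3:**
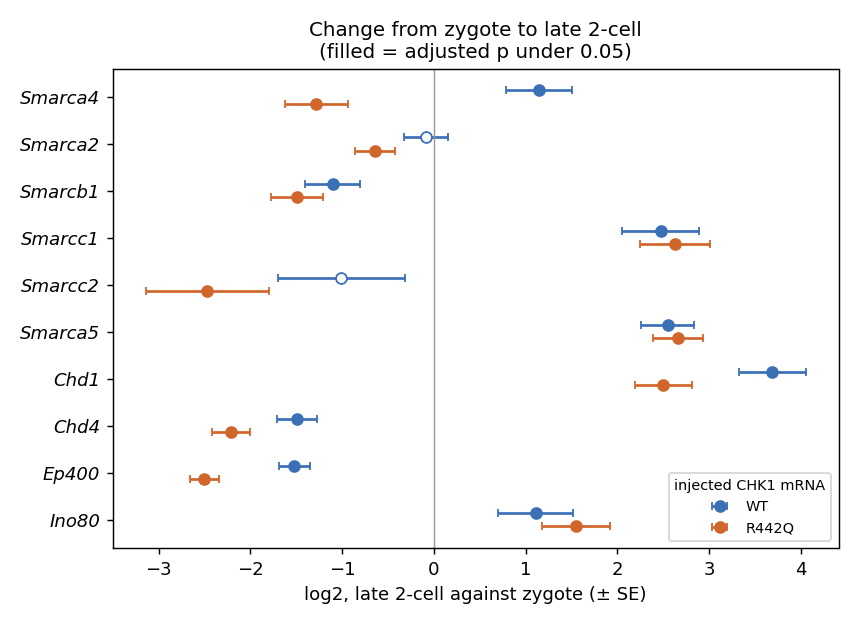
Log2 difference between late 2-cell embryos and zygotes (x axis, ± SE) for each gene (y axis), in blue for WT and orange for R442Q, with filled points for an edgeR adjusted p under 0.05. Smarca4 lies at 1.15 in WT and -1.28 in R442Q embryos, and the called values of the other members have the same sign in both.

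In zygotes, R442Q embryos had more Smarca2 and less Ino80 than WT embryos. Each stage was tested alone, and 2 of the 10 members were called, 1 higher and 1 lower, where 13.2% of 12420 genes were called. The members' median was -0.11 on the log2 scale, against 0.01 over all genes. On plain CPM the kinds of embryo did not overlap for 4 members, Smarca2 (higher) and Smarca4, Chd4 and Ino80 (lower), where 9.39% of genes did not overlap. After TMM scaling the number was 3, without Smarca4, where 8.74% of genes did not overlap.

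Smarca2 had 202, 210, 260, 209 and 233 CPM in WT zygotes and 275 to 340 CPM (median 304) in the 6 R442Q zygotes. All 6 lay above the highest WT zygote, and the difference was 0.57 ± 0.10 on the log2 scale, or 1.49-fold (edgeR adjusted p = 0.0022). Leaving out any 1 embryo kept the call, with an adjusted p of 0.0016 to 0.0096. By deposited FPKM the ranges were 230 to 334 in WT and 347 to 414 in R442Q zygotes. The edgeR test used counts per gene, so which Smarca2 transcripts carry this difference is not known.

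Ino80 had 16.7, 15.1, 13.9, 14.7 and 13.1 CPM in WT zygotes and 5.13 to 9.88 CPM (median 7.05) in R442Q zygotes. All 6 R442Q zygotes were under the lowest WT zygote, with a difference of -0.87 ± 0.23, or 54.9% of WT (edgeR adjusted p = 0.020). Without WT zygote replicate 1 the adjusted p was 0.0527. With one estimate of spread for both stages neither zygote call held, at adjusted p = 0.211 for Smarca2 and 0.347 for Ino80, and the differences of 0.60 and -0.84 were close to those above.

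The other motors and BAF genes did not pass in zygotes. Smarca4 had 30.2 to 43 CPM in WT and 22.1 to 28.3 CPM in R442Q zygotes, with a difference of -0.35 ± 0.14 (edgeR adjusted p = 0.109). Chd4 had 104 to 117 CPM in WT and 50.1 to 92.8 CPM in R442Q zygotes, with a difference of -0.41 ± 0.15 (edgeR adjusted p = 0.087). On log2(FPKM + 1) limma called Chd4, at -0.83 (adjusted p = 0.0107). Smarcc1 had a difference of -0.97 ± 0.35 from low levels of 1.48 to 12.4 CPM (edgeR adjusted p = 0.076), which passed without R442Q zygote replicate 6 (0.0458) and in DESeq2 (0.0456). Smarcb1, Smarcc2, Smarca5, Chd1 and Ep400 had differences between -0.12 and 0.16. Marker sums differed between the kinds in zygotes: the summed FPKM of 8 oocyte markers was 5719 to 7394 in WT and 4093 to 5694 in R442Q zygotes, and that of 9 cumulus cell markers was 17.9 to 20.3 and 12.1 to 16. Among the cumulus markers Amh and Pgr were at 0 in every zygote. Neither pair of ranges overlapped, and their part in the results was not tested.

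In late 2-cell embryos, R442Q embryos had less Smarca4 and less Ep400. Of the 10 members 2 were called, both lower, where 4.18% of 13883 genes were called. The members' median was -0.84 on the log2 scale, against 0.07 over all genes. After removal of the trend with gene length and GC content it was -0.31, and edgeR called 0 members where it called 132 of 13754 genes. By limma on log2(FPKM + 1) it was -0.41, and 1 member was called beside 681 of 13883 genes. On plain CPM the kinds of embryo did not overlap for 4 members, Smarca4, Chd1, Chd4 and Ep400, each lower in R442Q embryos, where 12.4% of genes did not overlap, and TMM scaling left the same 4, where 11.9% of genes did not overlap.

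Smarca4 had 78.1, 111, 70.2 and 80.5 CPM in WT embryos, from 455 to 766 counts, and 6.73, 4.36, 22.9, 22.4 and 6.5 CPM in R442Q embryos, from 25 to 139 counts. All 5 R442Q embryos lay under the lowest WT embryo, with 2 of them, replicates 3 and 4, above the other 3. The difference was -2.70 ± 0.49 on the log2 scale, which leaves 15.4% of the WT level (edgeR adjusted p = 0.012). It was called in each of 9 fits without 1 embryo, with differences of -3.03 to -2.49 and adjusted p of 0.0124 to 0.0454. After removal of the trend with gene length and GC content it was -1.71 and not called (adjusted p = 0.113).

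Ep400 had 121, 123, 137 and 124 CPM in WT embryos and 55.7, 54.5, 53.6, 67.8 and 61.1 CPM in R442Q embryos. On CPM the 2 groups were narrow and far apart, with a difference of -1.01 ± 0.26, or 49.6% of WT (edgeR adjusted p = 0.045). In this fit the call sits at the threshold: none of the 9 fits without 1 embryo held it, with adjusted p of 0.0505 to 0.128. DESeq2 and the model of both stages called it as well (adjusted p = 0.0024 and 1.5e-04). By deposited FPKM the ranges of 21.7 to 33.9 in WT and 6.91 to 22.1 in R442Q embryos overlapped (limma adjusted p = 0.0908). After removal of the length and GC trend the difference was -0.31 (adjusted p = 0.726). Ep400 has the longest coding transcript of the 10 genes, 10685 bases.

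Length and GC content moved with the R442Q difference over all genes at this stage. Over 13784 genes the log2 difference had a Pearson r of -0.313 with log2 length and -0.273 with GC content, as a description, and -0.017 and -0.037 in zygotes. Genes within a library share its RNA and are not independent. The deposited FPKM sums were 712234 to 742246 in WT and 814376 to 976830 in R442Q embryos and did not overlap. The oocyte marker sum was 1366 to 3410 in WT and 1872 to 7147 in R442Q embryos, and that of 7 markers of the 2-cell stage was 111 to 1061 and 571 to 1929. The part of these marker levels in the results was not tested.

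On CPM each R442Q embryo had less Chd4 and less Chd1 than any WT embryo, and neither gene passed over all genes. Chd4 had 46.4, 44.6, 35.7 and 38.4 CPM in WT and 13.5, 18, 19.6, 18.4 and 24.3 CPM in R442Q embryos, with a difference of -1.04 ± 0.34 (edgeR adjusted p = 0.097). DESeq2 called it (adjusted p = 0.0217), as did the model of both stages (0.0014). By deposited FPKM its ranges of 5.21 to 13.1 in WT and 2.02 to 6.97 in R442Q embryos overlapped, and after removal of the length and GC trend it was -0.34 (edgeR adjusted p = 0.733). Chd1 had 115, 160, 112 and 148 CPM in WT and 64, 64.8, 107, 17.1 and 75.6 CPM in R442Q embryos, with a difference of -0.95 ± 0.40 (edgeR adjusted p = 0.189). The model of both stages called it (adjusted p = 0.0378), and on log2(FPKM + 1) it was -1.96 (limma adjusted p = 0.0734). The effective length of Chd1 was 1774 to 2043 bases in WT and 2126 to 8020 bases in R442Q embryos. Its FPKM difference thus also holds a difference in the length used. On CPM R442Q replicate 3 came close to the WT range and replicate 4 lay far under it. Ino80 had 31.5, 30.1, 39.4 and 32.8 CPM in WT and 8.97, 18, 66.8, 15.1 and 19.9 CPM in R442Q embryos. R442Q replicate 3 was above every WT embryo and the other 4 were under every one, so that the difference was -0.35 ± 0.49 with that embryo and -0.98 without it (edgeR adjusted p = 0.745 and 0.154). Smarca2 and Smarca5 were at 0.10 ± 0.34 and 0.10 ± 0.36, with overlapping ranges.

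**Figure D4:**
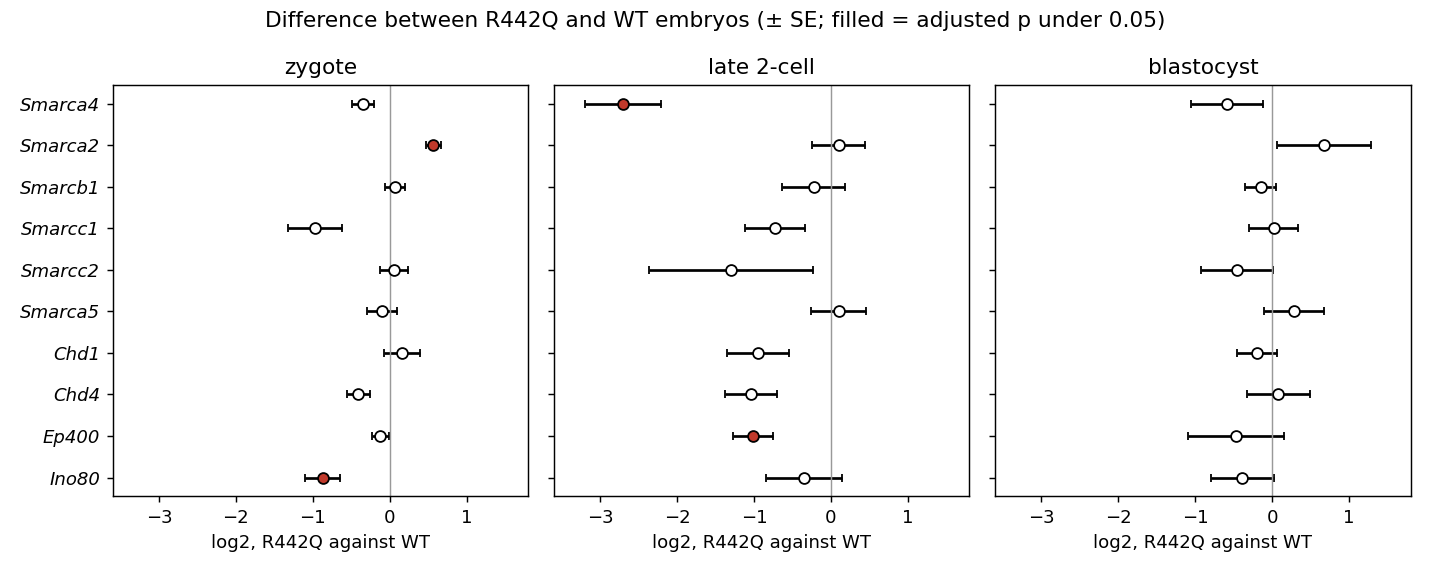
Log2 difference of R442Q against WT embryos (x axis, ± SE) for each gene (y axis) in zygotes, late 2-cell embryos and blastocysts, with filled points for an adjusted p under 0.05 (edgeR on counts in the first 2 panels, limma on log2(FPKM + 1) in the last). Smarca4 in late 2-cell embryos, at -2.70, lies farthest from 0, and no point is filled in blastocysts.

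The R442Q difference itself differed between the stages for 2 of the 10 members, where 10.1% of 16199 genes did. For Smarca4 the late 2-cell difference minus the zygote difference was -2.43 ± 0.49 on the log2 scale (edgeR interaction, adjusted p = 0.0031), and it held in each of 20 fits without 1 embryo. For Ep400 it was -0.98 ± 0.22 (edgeR adjusted p = 0.0068), and 0.0566 without WT zygote replicate 2 and 0.0705 with no filter on low counts. The length and GC trend was not removed in this test. Tested stage by stage after that removal, Ep400 was at -0.31 in late 2-cell embryos and -0.06 in zygotes, and Smarca4 at -1.71 and -0.34. The 4 groups are those of the comparisons above, so this is a test of their difference and not a further measurement. With DESeq2's size factors in place of TMM the median of all genes moved from -0.16 to -0.01, and the calls over all genes from 497 higher and 1142 lower to 707 and 917. Smarca4 and Ep400 were at -2.27 and -0.81 on that scale, both called. For Chd1 and Chd4 the interaction was -1.20 ± 0.45 and -0.72 ± 0.29 (edgeR adjusted p = 0.093 and 0.120).

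In blastocysts no member was called by limma on log2(FPKM + 1), where 1 of 11297 genes, or 0.00885%, was called. Of the 10 members 0 had an unadjusted p under 0.05, against 836 of all genes. The kinds of embryo overlapped for each member, where 0.416% of genes did not overlap. Smarca4 had 8.68 to 25.1 FPKM (median 18.7) in WT and 0.91 to 22.8 FPKM (median 16.9) in R442Q blastocysts, with a difference of -0.59 ± 0.47 (limma adjusted p = 0.843). Its 95% interval from that SE, -1.51 to 0.33, holds 0 and is wide. Smarca2 had a difference of 0.68 ± 0.61 and Smarcb1, with the smallest SE of the 10 members, -0.15 ± 0.20. R442Q blastocyst replicate 7 stood apart: 4 members were under an FPKM of 1 there, Smarca4, Smarca2, Smarcc2 and Ino80, and it had 8189 genes with an FPKM of at least 1, against 9852 to 12191 in WT blastocysts. Without it Smarca4 was at -0.15, and no member was called in any of the 14 fits without 1 embryo.

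Other genes of these families, both subunits and further ATPases, were read from 5 lists with 97 genes in all. In zygotes 14 of the 88 tested were called, 2 higher and 12 lower, or 15.9%, beside 13.2% of all genes (783 higher and 860 lower). Of 29 subunits of the INO80, SRCAP and TIP60 complexes, 1 was higher and 6 were lower. Nfrkb, an INO80 subunit, had 98.6 ± 23.7 CPM (SD, n = 5) in WT and 36.7 ± 12.6 CPM (SD, n = 6) in R442Q zygotes (log2 -1.30 ± 0.21, edgeR adjusted p = 9.3e-04). Of 19 other BAF subunits 1 was higher and 2 were lower, and Ss18, a BAF subunit, went from 102 ± 17.4 to 48.1 ± 4.64 CPM (log2 -0.97 ± 0.14, edgeR adjusted p = 4.5e-04). Chd9 (-0.57), Cecr2 (-0.40), an ISWI partner, and Atrx (-0.52), an H3.3 chaperone complex motor, were lower with edgeR adjusted p of 0.00779, 0.0473 and 0.0296.

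In late 2-cell embryos 5 of the 91 list genes tested were called, all lower, or 5.5%, beside 4.18% of all genes (170 higher and 410 lower). The length and GC trend was not removed for these lists. With it removed, 132 of 13754 genes in all were called. Srcap, the motor that deposits the histone variant H2A.Z, went from 133 ± 15.3 CPM (SD, n = 4) in WT to 27.8 ± 9.27 CPM (SD, n = 5) in R442Q embryos (log2 -2.16 ± 0.31, edgeR adjusted p = 0.00378). Mta2, a NuRD subunit, went from 233 ± 99.2 to 37 ± 22 CPM (log2 -2.54 ± 0.48, edgeR adjusted p = 0.0132). Brd9, a subunit of the non-canonical BAF form, was at the threshold (log2 -1.46 ± 0.39, edgeR adjusted p = 0.04999). Of the ISWI partners and of the other SNF2-type ATPases, 0 of 9 and 0 of 12 were called by edgeR, with 2 of each list at an unadjusted p under 0.05, beside 2910 of all 13883 genes. In blastocysts 0 of 87 list genes were called by limma, with 4 at an unadjusted p under 0.05, beside 1 called and 836 at that unadjusted p among all 11297 genes. Between the stages 56 of 94 list genes were called in WT embryos, 27 higher and 29 lower, or 59.6%, beside 61.2% of all genes (5870 higher and 4050 lower). In R442Q embryos 22 were higher and 38 lower, or 63.8%, beside 65.1% of all genes (5722 higher and 4825 lower). For the interaction 2 were higher and 10 lower, or 12.8%, beside 10.1% of all genes (497 higher and 1142 lower). Single lists lay on either side of these shares: of 23 other BAF subunits 5 were higher and 5 lower between the stages in WT embryos.

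The gene nearest to a member over the 20 zygotes and late 2-cell embryos was taken by the root mean square difference of centred log2 CPM, among 10853 genes. For Smarca4 it was Lmnb1 (0.51, beside an SD of 1.16 of Smarca4 itself), and for Ep400 it was Epn2 (0.24, beside 1.12). For Chd4 it was Specc1l (0.29), for Chd1 Sbno1 (0.39) and for Smarca5 Arf4 (0.34). For Smarcb1 it was Hmgcll1 (0.29), for Smarcc1 Ube2j2 (0.55), for Smarcc2 Zfp653 (0.70) and for Smarca2 AC160336.1 (0.26). None of these 9 nearest genes was itself a member.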

How the data were processed

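Per the labels, single embryos gave SMART-seq2 cDNA, Tn5-cut Nextera libraries and HiSeq X-10 reads. Per the submitters' processing notes, RSEM and mm10 were used, and versions, strand and annotation are not given in the sources used here. The authors deposited expected counts per gene for zygotes and late 2-cell embryos, and FPKM for all 3 stages, normalised by the authors to length and library size. Blastocysts were therefore tested on FPKM alone. The 10 genes, the lists and the tests were chosen with earlier results of these data known.

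Counts were rounded and tested with edgeR 4.0.16 (quasi-likelihood, TMM, filterByExpr with a minimum count of 10) in R 4.3.3, within each stage and in a model of both. Blastocysts were tested with limma 3.58.1 on log2(FPKM + 1) where 7 of 14 embryos reached an FPKM of 1. P-values were adjusted by Benjamini-Hochberg over all genes tested. DESeq2 1.42.0 was an alternative. A log2 difference from FPKM understates changes of low genes. A floor of 3 counts describes counting error alone, because the reads carry no molecular identifiers. Implied length is the count divided by total count and FPKM. Symbols were matched to GENCODE M21 (98.4% of those in the count tables, 92.1% in the blastocyst table), and all 97 symbols of the 5 lists were found. Named genes were all members in each comparison, from each list the called gene with the smallest p in zygotes and in late 2-cell embryos, and 1 nearest gene per member, of which that of Ino80 is not reported here. The fits were tested on simulated counts. No 2 libraries held identical values.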

Additional observations from a re-analysis of the deposited data

Results flagged for a closer look

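The R442Q difference differed between the late 2-cell stage and the zygote by -2.43 for Smarca4 and -0.98 for Ep400 on the log2 scale, by the edgeR interaction test.

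Within groups, 7 of 60 pairs of member and group had 1 embryo whose gap to the nearest other, as a share of the group's range, was above Dixon's 95% critical value. The rule is set to flag about 1 in 20 groups of independent, normally distributed values. Its rate on these data was not measured. In R442Q zygotes these were Smarca4 in replicate 2 (22.1 CPM, the others 26.6 to 28.3) and Smarcc2 in replicate 3 (12.4 CPM, the others 17.8 to 19.2). In late 2-cell embryos they were Smarcc1 in R442Q replicate 4 (18.8 CPM, the others 31.1 to 35), Ino80 in R442Q replicate 3 (66.8 CPM, the others 8.97 to 19.9) and Ep400 in WT replicate 3 (137 CPM, the others 121 to 124). In blastocysts they were Smarca5 in WT replicate 1 (31.9 FPKM, the others 5.59 to 10.6) and Ino80 in R442Q replicate 4 (6.37 FPKM, the others 0.01 to 2.51).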

How the results depend on the processing

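Limits: among values of a member under another setting of the whole fit, 277 kept direction and side of the threshold, 11 lost a call, 6 gained one and 6 changed sign. The cause was not tested. Members called in zygotes were 2, and 3 with DESeq2 (2093 genes called in place of 1643), 3 with limma on FPKM (1648) and 0 with the joint fit (270). In late 2-cell embryos they were 2, and 4 with the joint fit, 3 with DESeq2, 1 with limma on FPKM, 1 with no filter, 0 after removal of the length and GC trend and 0 with the replicate block. The genes called there, 580, became 1683 with DESeq2, 2507 with the joint fit, 889 with no filter, 681 with limma on FPKM and 132 after removal of the trend. In blastocysts 1 gene became 0 with no filter and 3 with TMM scaling. For the interaction 1 member was called with no filter. No alternative reversed a called member.

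Replicate numbers were checked for a pairing of embryos, by correlations of deviations of embryos with the same number. With the numbers in the titles these were over 0.1 in 0 of 5 zygote, 1 of 4 late 2-cell and 3 of 7 blastocyst pairs. With the numbers of the deposited columns, which differ in the first 2 stages, they were so in 0 of 5 and 0 of 3. Embryos with different numbers were not set beside these, so a pairing was neither shown nor excluded. With the title number as a block, late 2-cell calls went from 580 to 58 genes, the interaction from 1639 to 1085 and blastocysts from 1 to 0. In the block fit Smarca4 in late 2-cell embryos had adjusted p = 0.063, Ino80 in zygotes 0.0631 and Smarcc1 in zygotes 0.0461.

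Signs turned only for uncalled values. In zygotes Smarcb1 was -0.04 with the block and -0.09 on FPKM, and Smarcc2 -0.37 on FPKM. In late 2-cell embryos Smarca5 was -0.02 with the block and -0.27 on FPKM, and Ino80 0.03 after removal of the trend. Leaving out 1 embryo gave these ranges: in zygotes Smarcb1 -0.03 to 0.12 and Smarca5 -0.17 to 0.01; in late 2-cell embryos Smarca2 -0.07 to 0.37 and Smarca5 -0.13 to 0.27; for WT stage change Smarca2 -0.51 to 0.05; for the interaction Smarca5 -0.00 to 0.42 and Ino80 -0.05 to 0.74; in blastocysts Smarcc1 -0.12 to 0.18 and Chd4 -0.09 to 0.36.

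Leaving out 1 embryo gave 1125 to 1718 called genes and 1 to 3 members in zygotes, 142 to 891 and 1 to 1 in late 2-cell embryos, 0 to 30 and 0 to 0 in blastocysts, and 1089 to 2311 and 1 to 2 for the interaction. The late 2-cell count fell to 142 without WT replicate 2 and rose to 891 without R442Q replicate 3, and the 30 blastocyst calls came without WT replicate 7. For stage changes the ranges were 9306 to 10279 genes and 6 to 8 members (WT), and 10095 to 10834 and 10 to 10 (R442Q). The median log2 ratio of Smarca2 to Smarca4 by FPKM was 5.42 in WT zygotes, 6.46 in R442Q zygotes, 4.10 in WT and 7.31 in R442Q late 2-cell embryos, and by counts per length 2.68, 3.66, 1.22 and 4.30. The overlap after TMM scaling was added after seeing the data.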
